A study of Mus musculus with 16 samples.

Results

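The genes described are 7 genes best known from the gut: Guca2b (uroguanylin), Guca2a (guanylin), Gucy2c (their receptor, guanylate cyclase C), Tff1, Tff2 and Tff3 (the trefoil factors) and Vil1 (villin). Each was read from the probe set that carries that 1 symbol, so the 7 genes were 7 of the 18820 genes measured. Guca2b and Tff3 drew attention because of their difference between TRAF2/Casp8 KO and WT livers. Guca2a, Gucy2c, Tff1 and Tff2 are their relatives by family or pathway, and Vil1 is another gut gene. The comparison of TRAF2/Casp8 KO and WT is therefore given as a description, without a p-value for the 7 genes. So are Guca2b and Tff3 in the other comparisons that use TRAF2/Casp8 KO or WT arrays. All 7 were chosen with earlier results of these data known. The p-values of the other genes in comparisons with those arrays may therefore not be independent of that choice.

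RNA of whole liver from 16 male mice aged 7 days was hybridised to Affymetrix arrays, with 1 animal per array and 4 animals per genotype. IKKβ triple KO mice carried floxed Traf2, Casp8 and Ikkβ alleles that alfp-Cre deletes in liver parenchymal cells. RIPK3 triple KO mice carried the same Cre with floxed Traf2 and Casp8 and lacked RIPK3 constitutively, in every cell. TRAF2/Casp8 KO mice carried that Cre with floxed Traf2 and Casp8 alone. WT mice were, per the labels, littermate controls with floxed alleles and no Cre. The 3 knockout genotypes share the floxed Traf2 and Casp8 alleles and the alfp-Cre transgene, which is active in hepatocytes and bile duct cells, so other cells of the liver keep TRAF2, caspase-8 and IKKβ. All animals had a mixed C57/BL6 and SV129Ola background. The values are log2 signals, on which a difference of 1 is a 2-fold change.

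Uroguanylin and guanylin are small peptides that intestinal epithelial cells secrete into the gut lumen. They bind guanylate cyclase C on the apical membrane, and the cyclic GMP made there drives chloride and bicarbonate secretion through protein kinase G II and the CFTR channel. Trefoil factors are secreted with mucins and protect and repair epithelia: Tff1 and Tff2 are stomach products, and Tff3 is a product of intestinal goblet cells and of bile duct epithelium. Villin bundles actin in microvilli, in the brush border of the gut and on the canalicular face of hepatocytes.

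The promoters of the guanylin pair are shown because these neighbouring genes of chromosome 4 differed in the size of their response. The sequences are RefSeq's for GRCm38.p6 and run from 250 bases before to 50 bases after the gene's start, 5′ to 3′ on the gene's own strand. Guca2b lies at chr4:119658896-119659195 on the minus strand and Guca2a at chr4:119637482-119637781 on the plus strand. Capitals mark matches to the HNF1 half-site GTTAAT, the GATA site AGATAA (printed as its reverse complement) and the AP-1 site TGANTCA, searched on both strands.
Guca2b: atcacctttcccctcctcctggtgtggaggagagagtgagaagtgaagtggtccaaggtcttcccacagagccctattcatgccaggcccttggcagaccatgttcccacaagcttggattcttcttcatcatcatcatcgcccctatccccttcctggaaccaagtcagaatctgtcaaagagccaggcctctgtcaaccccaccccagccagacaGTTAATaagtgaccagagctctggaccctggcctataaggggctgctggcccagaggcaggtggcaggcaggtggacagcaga
Guca2a: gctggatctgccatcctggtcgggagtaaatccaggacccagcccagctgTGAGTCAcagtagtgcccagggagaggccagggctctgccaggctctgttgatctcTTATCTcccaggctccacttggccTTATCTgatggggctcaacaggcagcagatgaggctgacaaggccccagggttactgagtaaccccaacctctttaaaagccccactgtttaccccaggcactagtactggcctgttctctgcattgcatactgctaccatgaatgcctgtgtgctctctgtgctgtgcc

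Counted from the gene's start, the Guca2b window held 1 HNF1 half-site at -33 to -28 and neither of the other capitalised motifs. The Guca2a window held an AP-1 site at -200 to -194 and GATA sites at -144 to -139 and -120 to -115. Among 32851 promoter windows of the same length, 7.10% held the HNF1 half-site, 11.2% the GATA site and 7.81% the AP-1 site. The loose κB pattern GGGNNNNNCC matched 2 times in Guca2a, without overlap with each other or with the capitals, and 0 times in Guca2b, and 50.8% of all windows held it. The Vil1 window on chromosome 1 held 1 such match and none of the 3 capitalised motifs. The CDX motif TTTATG and the HNF4 half-site CAAAGTC matched none of these 3 windows, and 11.9% and 4.44% of all windows held them. The matches describe the letters of these windows only.

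The labels were checked first. Casp8 signal was lower than in WT in all knockout genotypes, Ripk3 signal was 4.21 ± 0.14 in RIPK3 triple KO livers and 5.93 ± 0.34 in WT livers, and Ikbkb signal was 7.19 ± 0.11 in IKKβ triple KO livers and 7.64 ± 0.10 in WT livers (SD, n = 4 each). Traf2 signal went against the labels: it averaged 6.89, 7.32 and 7.30 in arrays labelled IKKβ triple KO, RIPK3 triple KO and TRAF2/Casp8 KO, and 6.28 in WT arrays. Whether its probes lie in the deleted part was not tested. Hepatocyte markers had array means of 12.46 to 12.82 over all arrays. Of the 9 measured 0 passed the test in any comparison (limma, 0 or 1 at an unadjusted p under 0.05), where 0.0372% to 3.31% of all genes passed. Genotype also followed the position on the array plate: IKKβ triple KO and WT lay in column 5, RIPK3 triple KO and TRAF2/Casp8 KO in column 7, so a difference between a genotype of column 5 and one of column 7 cannot be told apart from one between the columns. The labels do not say which animals came from 1 litter.

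Uroguanylin separated the genotypes into a high and a low pair. Guca2b signal was 5.41, 5.58, 4.66 and 4.06 in IKKβ triple KO livers. It was 7.75, 7.86, 8.10 and 8.73 in RIPK3 triple KO livers, and 8.61, 8.04, 8.72 and 9.67 in TRAF2/Casp8 KO livers. WT livers had 4.57, 4.74, 4.87 and 4.39. Every RIPK3 triple KO and TRAF2/Casp8 KO liver lay above every IKKβ triple KO and WT liver, and within each pair the ranges overlapped. The high pair is also the pair of plate column 7, and the low pair that of column 5. The distance from the lowest to the highest of the 16 livers was 5.62 on the log2 scale, the widest of the 7 genes.

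Guanylin, the second ligand, had the same order of means with smaller steps. Guca2a signal was 4.56, 4.58, 4.20 and 4.73 in IKKβ triple KO livers and 5.13, 4.98, 5.28 and 5.29 in RIPK3 triple KO livers. It was 5.82, 5.33, 6.27 and 6.71 in TRAF2/Casp8 KO livers and 4.55, 4.08, 4.14 and 4.35 in WT livers. Here RIPK3 triple KO livers stood between the others: each was above every IKKβ triple KO and WT liver and below every TRAF2/Casp8 KO liver.

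The receptor had another order of means than its ligands. Gucy2c signal was 5.59, 6.23, 5.55 and 5.64 in IKKβ triple KO livers, 4.66, 5.52, 5.12 and 5.94 in RIPK3 triple KO livers, 4.77, 4.72, 4.72 and 5.62 in TRAF2/Casp8 KO livers, and 5.97, 5.91, 5.0 and 5.94 in WT livers. The ranges overlapped in all 6 pairs of genotypes, and the highest mean was that of IKKβ triple KO livers (5.75 ± 0.32) and the lowest that of TRAF2/Casp8 KO livers (4.96 ± 0.44; SD, n = 4 each). No Gucy2c difference passed the test in the 5 comparisons in which it was tested. The largest of them, IKKβ triple KO minus TRAF2/Casp8 KO, was 0.79 on the log2 scale, with a 95% interval of 0.17 to 1.42 (limma adjusted p = 0.350).

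Among the trefoil factors, Tff3 was the only one with a wide range. Tff3 signal was 7.30, 6.84, 7.22 and 7.78 in IKKβ triple KO livers and 8.84, 9.10, 8.64 and 9.88 in RIPK3 triple KO livers. TRAF2/Casp8 KO livers had 8.86, 9.45, 9.40 and 9.5, and WT livers had 6.10, 6.23, 5.69 and 5.68. The high pair of genotypes was the same as for Guca2b, but IKKβ triple KO livers all lay above all WT livers, which was not so for Guca2b.

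Its 2 stomach relatives stayed within a narrow band. Tff1 signal ranged over all 16 livers from 3.69 to 4.28, and its genotype means were 4.15, 4.10, 4.10 and 4.04 in IKKβ triple KO, RIPK3 triple KO, TRAF2/Casp8 KO and WT livers. Tff2 signal ranged from 3.39 to 4.07, with means of 3.62, 3.87, 3.68 and 3.59 in the same order. Neither passed the test in any of the 5 comparisons tested. These are dim signals: with the probe sets cut into 3 equal parts by mean signal, the dimmest part ended at 3.70, and the mean of Tff2 was 3.69.

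Villin had the same order of means as the ligands. Vil1 signal was 3.41, 3.84, 3.80 and 3.80 in IKKβ triple KO livers, 4.47, 4.25, 3.85 and 4.00 in RIPK3 triple KO livers, 4.66, 4.26, 4.45 and 4.81 in TRAF2/Casp8 KO livers, and 3.51, 3.63, 3.53 and 3.54 in WT livers. Every TRAF2/Casp8 KO liver and every RIPK3 triple KO liver was above every IKKβ triple KO and WT liver, though the nearest RIPK3 triple KO and IKKβ triple KO livers had 3.85 and 3.84.

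**Figure D1:**
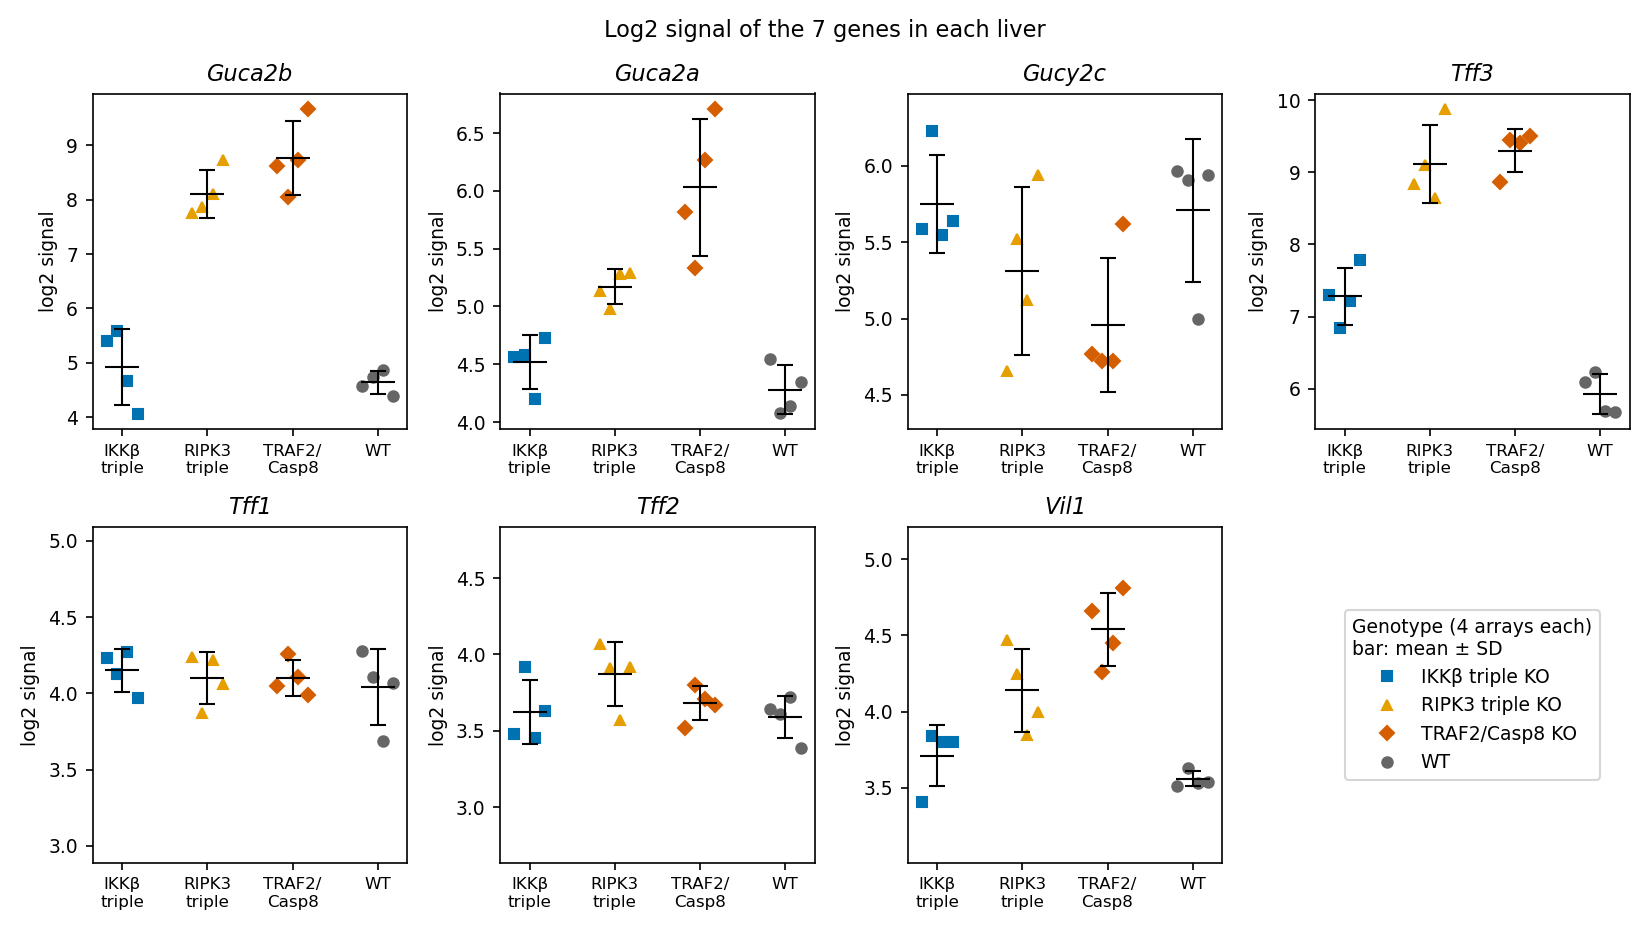
Log2 signal (y axis) of each of the 7 genes in every liver by genotype (x axis), with points for livers and bars for the mean ± SD of 4, and panels that each have their own y scale. Guca2b and Tff3 reach 9.67 and 9.88, while all 16 values of Tff1 lie between 3.69 and 4.28.

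The difference between both triple knockouts uses no TRAF2/Casp8 KO or WT signal, from which Guca2b and Tff3 were picked, although the spread in the test is estimated over all 16 arrays. It sets livers labelled as lacking IKKβ against livers labelled as lacking RIPK3, each with the Traf2 and Casp8 deletions, and it crosses the plate columns. Guca2b averaged 4.93 ± 0.70 in IKKβ triple KO livers and 8.11 ± 0.44 in RIPK3 triple KO livers (SD, n = 4 each), which is 9.06-fold lower in IKKβ triple KO livers (log2 difference -3.18, SE 0.35, limma adjusted p = 0.000279). Tff3 averaged 7.28 ± 0.39 in IKKβ triple KO livers and 9.12 ± 0.54 in RIPK3 triple KO livers, which is 3.56-fold lower (log2 difference -1.83, SE 0.25, limma adjusted p = 0.00218). With only these genotypes in the model, and so no TRAF2/Casp8 KO or WT array, the limma adjusted p was 0.00748 for Guca2b and 0.0313 for Tff3. The genes were still chosen with earlier results of these data known. These 2 of the 7 genes fell, against 1.38% of all genes. Guca2a and Vil1 also had lower ranges without overlap in IKKβ triple KO livers, which holds for 5.33% of all genes. Their log2 differences, -0.65 (95% interval -1.13 to -0.17) and -0.43 (-0.74 to -0.12), did not pass the test, with limma adjusted p = 0.177 and 0.165. Gucy2c, Tff1 and Tff2 had log2 differences of 0.44, 0.05 and -0.25 and overlapping ranges.

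IKKβ triple KO and TRAF2/Casp8 KO livers differ by label in IKKβ, and they also lie in different plate columns. Guca2b and Tff3, picked with these TRAF2/Casp8 KO arrays, had log2 differences of -3.83 and -2.02, IKKβ triple KO minus TRAF2/Casp8 KO, and ranges that did not overlap. Of the other 5 genes, Guca2a fell by 1.51 on the log2 scale (SE 0.22, limma adjusted p = 0.00360) and Vil1 by 0.83 (SE 0.14, adjusted p = 0.0124), where 0.903% of all genes fell. Vil1 averaged 3.71 ± 0.20 in IKKβ triple KO livers and 4.54 ± 0.24 in TRAF2/Casp8 KO livers (SD, n = 4 each), close to the limit of the dimmest probe sets, and the deposited values do not say which signals were above background. The Vil1 call was lost without TRAF2/Casp8 KO replicate 1 (adjusted p = 0.0567) or replicate 4 (adjusted p = 0.0545), and Guca2a and Vil1 were not called when only these genotypes entered the model (adjusted p = 0.0791 and 0.0734).

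IKKβ triple KO and WT livers share a plate column. Guca2b and Tff3 are given here without a test. None of the other genes of the 7 passed the test, where 0.0372% of all genes did. Guca2b and Tff3, picked with these WT arrays, had log2 differences of 0.29 and 1.36, and Tff3 stood at 7.28 ± 0.39 in IKKβ triple KO livers and 5.93 ± 0.28 in WT livers (SD, n = 4 each). The ranges of Tff3 did not overlap, as for 1.49% of all genes in that direction. Guca2a differed by 0.24 on the log2 scale (95% interval -0.24 to 0.72) and Vil1 by 0.16 (-0.15 to 0.46). None of the genes tested had an unadjusted p under 0.05 (limma).

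RIPK3 triple KO and WT livers lie in different plate columns. Guca2b and Tff3, picked with these WT arrays, had log2 differences of 3.46 and 3.19, RIPK3 triple KO minus WT, and ranges that did not overlap. Of the other 5 genes, Vil1 rose: it averaged 4.14 ± 0.27 in RIPK3 triple KO livers and 3.56 ± 0.05 in WT livers (SD, n = 4 each), a log2 difference of 0.59 (SE 0.14, limma adjusted p = 0.0490), where 1.94% of all genes rose. The Vil1 call was lost in 15 of the 25 alternatives, among them the omission of any 1 of RIPK3 triple KO replicates 1, 2 and 4, IKKβ triple KO replicates 2, 3 and 4, TRAF2/Casp8 KO replicates 1 and 3 and each WT replicate, with adjusted p from 0.0532 to 0.122. Guca2a had a log2 difference of 0.89 (SE 0.22) at limma adjusted p = 0.0502 and passed in 11 of the 25 alternatives.

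RIPK3 triple KO and TRAF2/Casp8 KO livers share a plate column. Guca2b and Tff3 are given here without a test. None of the other genes of the 7 passed the test, where 0.329% of all genes did. Guca2a and Vil1 had an unadjusted p under 0.05 (limma). Guca2b and Tff3, picked with these TRAF2/Casp8 KO arrays, had log2 differences of -0.65 and -0.18, RIPK3 triple KO minus TRAF2/Casp8 KO, and overlapping ranges. Vil1 had a log2 difference of -0.40 (95% interval -0.71 to -0.09). Guca2a was lower in every RIPK3 triple KO liver, as 3.62% of all genes were, with a log2 difference of -0.86 (95% interval -1.34 to -0.38, limma adjusted p = 0.170). Without TRAF2/Casp8 KO replicate 2 that difference was -1.10 and passed (adjusted p = 0.0236).

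As a description of the comparison from which 2 of them were picked, TRAF2/Casp8 KO minus WT was 4.12 for Guca2b, 3.38 for Tff3, 1.75 for Guca2a and 0.99 for Vil1 on the log2 scale. The same difference was -0.75 for Gucy2c, 0.09 for Tff2 and 0.06 for Tff1. In 4 of the 7 the ranges did not overlap, where 6.12% of all genes had higher ranges without overlap. TRAF2/Casp8 KO replicate 4 had the highest signal of its genotype in Guca2b, Guca2a, Gucy2c, Tff3 and Vil1, and its array name has another prefix than all others. Without it the differences were 3.81 for Guca2b, 1.53 for Guca2a, 3.31 for Tff3, 0.90 for Vil1 and -0.97 for Gucy2c. All comparisons that share a genotype share its arrays, so their values are not independent of each other.

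**Figure D2:**
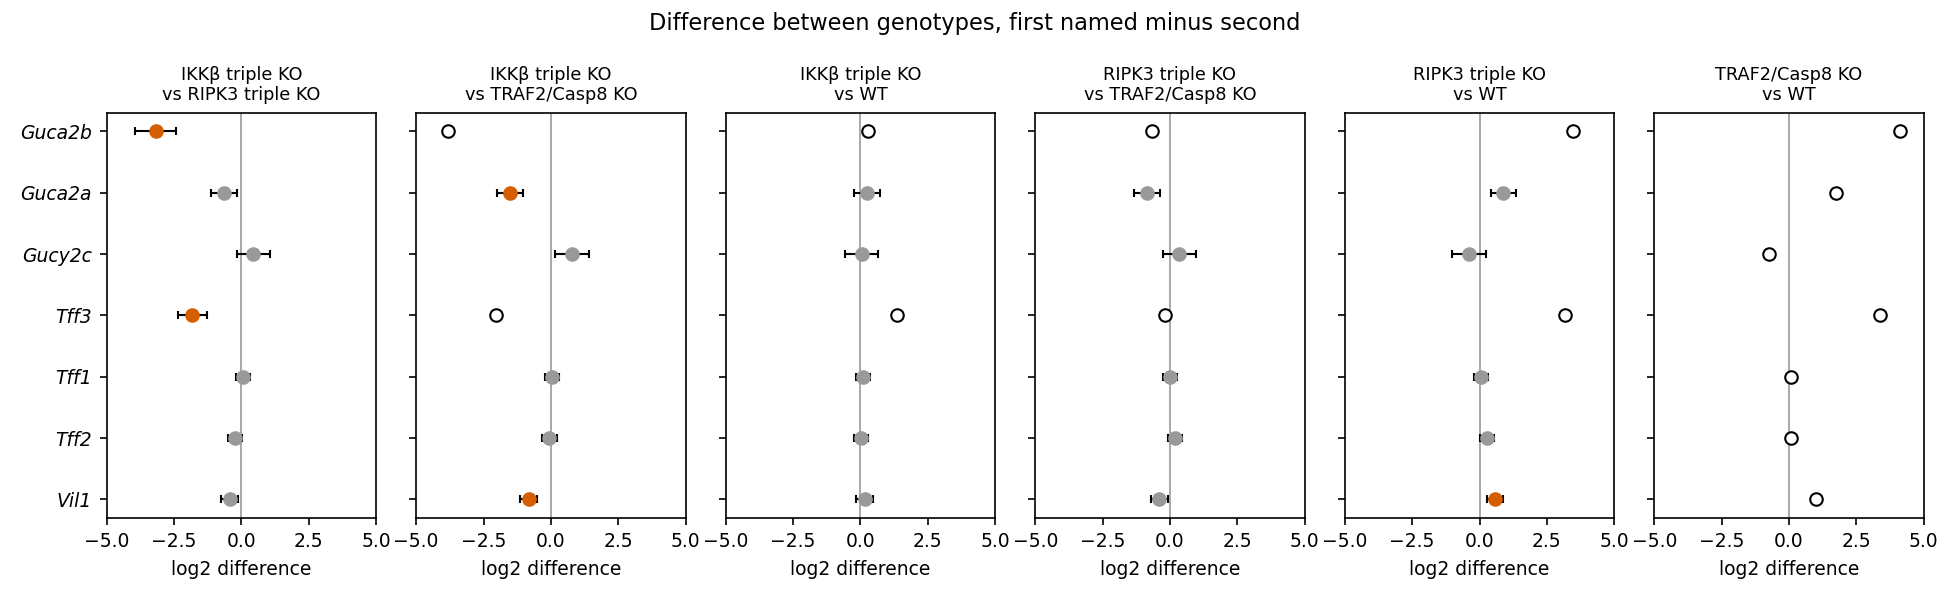
Log2 difference (x axis) of each of the 7 genes (rows) in the 6 comparisons, first-named genotype minus second, with 95% intervals and orange points where the adjusted p was under 0.05. Open points without intervals are descriptions that use the arrays from which Guca2b and Tff3 were picked, and between both triple knockouts Guca2b was at -3.18 and Tff3 at -1.83.

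Guca2b and Tff3 ran together across genotypes but not within them. Over the 16 livers their Pearson correlation was 0.90, and the points share 4 genotypes. After the mean of each genotype was taken off, it was 0.02. For Guca2b and its neighbour Guca2a the same values were 0.89 and 0.52, and for Guca2b and the receptor Gucy2c they were -0.49 and 0.52.

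**Figure D3:**
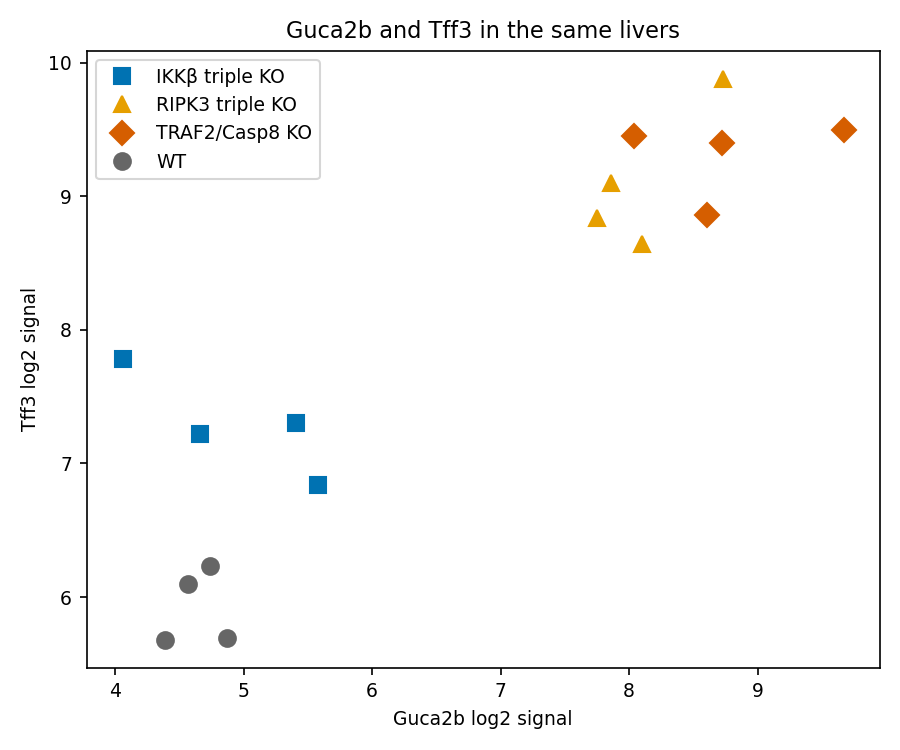
Tff3 log2 signal (y axis) against Guca2b log2 signal (x axis) in the same 16 livers, with a symbol for each genotype. IKKβ triple KO livers have Guca2b signals of 4.06 to 5.58, which overlap those of WT livers, and Tff3 signals of 6.84 to 7.78, which do not.

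Of the 2656 genes whose signal spanned at least 1 on the log2 scale over the 16 livers, those most like Guca2b by Pearson correlation were Cul7 (0.966), Scube3 (0.962), Birc2 (0.960), Pawr (0.957), Arc (0.957) and Nfkbie (0.955). Birc2 encodes the ubiquitin ligase cIAP1, and Nfkbie encodes IκBε, an inhibitor that holds NF-κB in the cytoplasm. Those most like Tff3 were Arc (0.963), Ccl9 (0.950), Kalrn (0.947), Serpina12 (0.944), Nfkb2 (0.942) and Cep162 (0.941). After the mean of each genotype was taken off, the correlations were 0.54 to 0.66 with Guca2b. With Tff3 they were only -0.14 to 0.37, so that likeness lies mostly in the genotype means. Nfkb2 encodes p100, the precursor of the non-canonical NF-κB subunit p52, and Ccl9 is a chemokine. The log2 differences of the 11 genes, IKKβ triple KO minus RIPK3 triple KO, ran from -0.46 for Cep162 to -2.83 for Serpina12. The 11 genes were selected on the same 16 livers for likeness to Guca2b or Tff3. Both of those fell in that comparison, so lower values there follow from the choice.

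The genes next to the 7 on their chromosomes were not past the test. The 2 nearest measured genes on each side of the guanylin pair (chromosome 4), the trefoil cluster (chromosome 17), Gucy2c (chromosome 6) and Vil1 (chromosome 1) gave 16 neighbours, placed by RefSeq. In all 6 comparisons 0 of the 16 passed (limma, 0 to 4 at an unadjusted p under 0.05), with log2 differences from -0.39 to 0.59. That is near the share of all genes that passed, 0.0372% to 3.31% by comparison. Beside the guanylin pair the neighbours were Foxj3, a forkhead transcription factor, Frg2f1, Hivep3 and Edn2, the peptide endothelin 2. Tff1 and Tff2 lie beside Tff3 in 1 cluster.

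**Figure D4:**
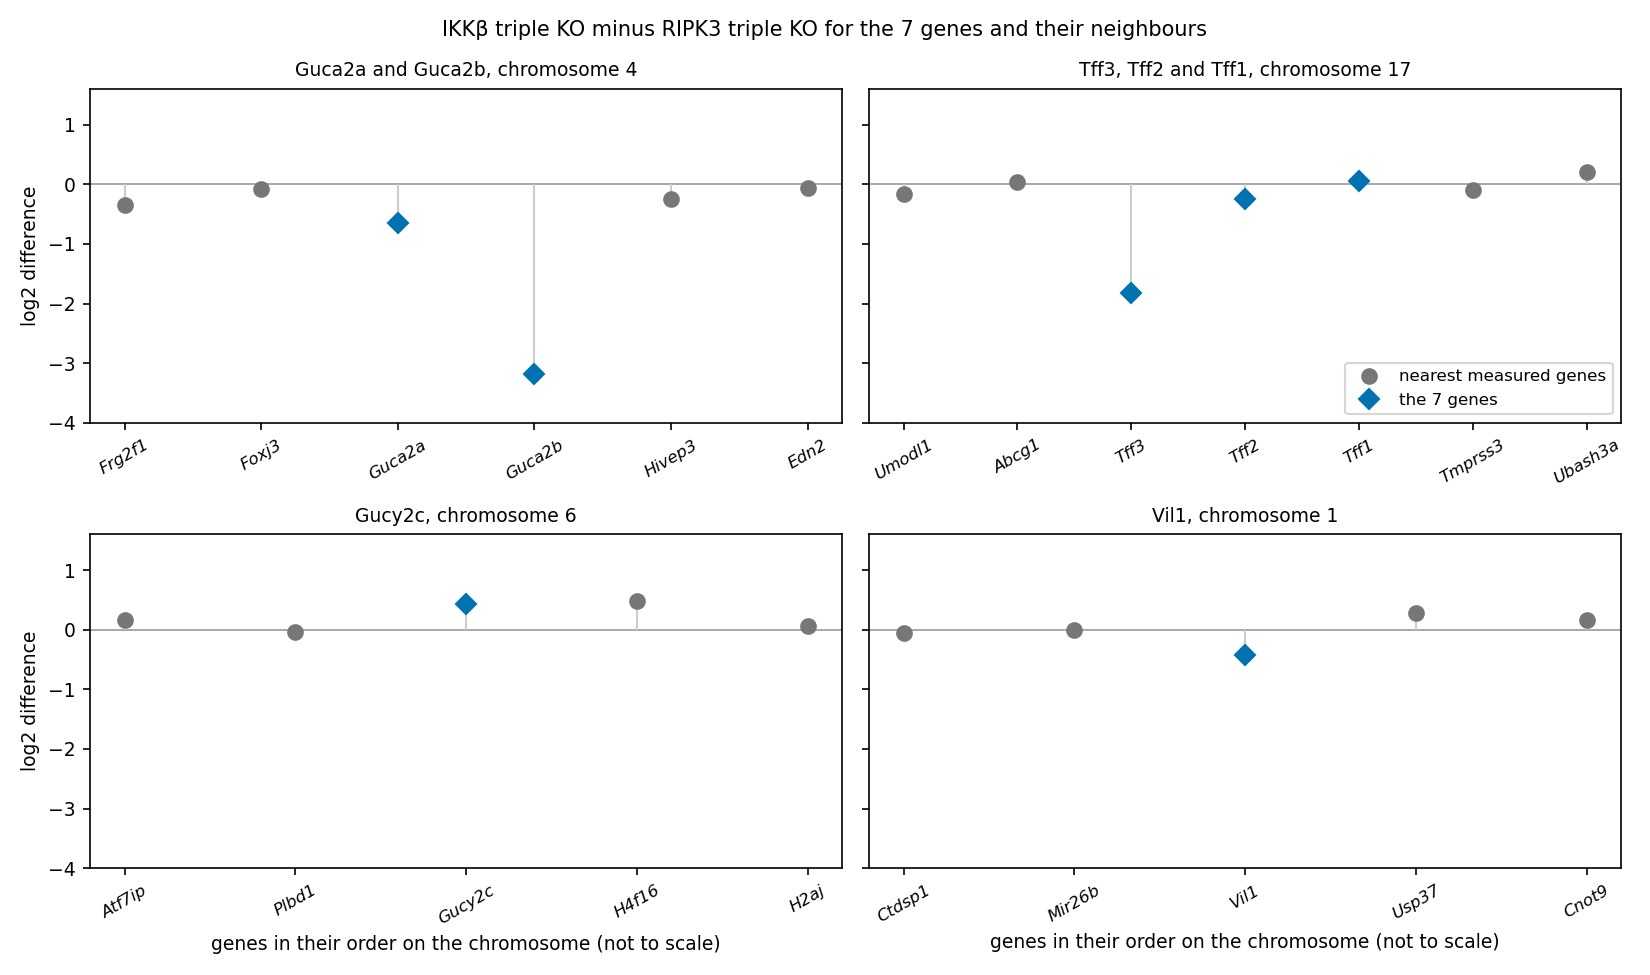
Log2 difference, IKKβ triple KO minus RIPK3 triple KO (y axis), for the 7 genes (blue diamonds) and their nearest measured neighbours (grey circles), in chromosome order (x axis, not to scale). Guca2b at -3.18 and Tff3 at -1.83 stand below genes on either side of them.

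A further 5 lists of other intestinal-type genes (167 genes written without the 7, 154 measured) gave the wider setting. In IKKβ triple KO against RIPK3 triple KO livers 2 rose and 6 fell, or 5.19% against 2.0% of all genes. In TRAF2/Casp8 KO against WT livers 8 rose and 2 fell, or 6.49% against 3.31% of all genes. In RIPK3 triple KO against WT livers 8 rose and 5 fell, or 8.44% against 3.11%. IKKβ triple KO against TRAF2/Casp8 KO gave 0 up and 4 down (2.60% against 1.02%), and RIPK3 triple KO against TRAF2/Casp8 KO gave 0 up and 2 down (1.30% against 0.329%). IKKβ triple KO against WT gave 0 of either, where 0.0372% of all genes passed (limma).

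Downstream of the ligands, the guanylin and cyclic GMP list (27 genes measured) had 0 up and 2 down between both triple knockouts, or 7.41% against 2.0% of all genes, with a list median of -0.09 against -0.01 for all genes. Prkg2, the protein kinase G II that guanylate cyclase C activates in the gut, fell, but it is among the dimmest probe sets, with a mean of 3.16, and a filter at 3.70 removes it. Its signal was 2.59 to 3.10 in IKKβ triple KO livers and 3.46 to 3.74 in RIPK3 triple KO livers (log2 difference -0.76, SE 0.13, limma adjusted p = 0.0115). Slc26a6, an anion exchanger for chloride and bicarbonate, was lower by 0.50 on the log2 scale (adjusted p = 0.0276). Its mean was 4.93 in RIPK3 triple KO livers, and 4.43, 4.51 and 4.29 in IKKβ triple KO, TRAF2/Casp8 KO and WT livers. Prkg2 and Slc26a6 rose in RIPK3 triple KO livers relative to WT, by 0.82 and 0.64. Prkg2 also rose by 0.63 in TRAF2/Casp8 KO livers relative to WT (limma adjusted p = 0.0215).

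The list of trefoil, mucin and goblet cell genes had 0 of 29 past the test in each of the 6 comparisons (limma, 0 to 4 at an unadjusted p under 0.05). That is near the share of all genes that passed, 0.0372% to 3.31% by comparison. The list medians ran from -0.12 to 0.13. The mucosal immunoglobulin receptor Pigr had a log2 difference of -0.97 between IKKβ triple KO and RIPK3 triple KO livers (adjusted p = 0.176). Retnlb, a secreted goblet cell product, had a log2 difference of -0.29 between TRAF2/Casp8 KO and WT livers (limma adjusted p = 0.149).

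Villin's relatives and brush border genes moved in both directions. Between both triple knockouts 1 of 35 rose and 3 fell, or 11.4% against 2.0% of all genes, with a list median of -0.04. Cdhr5, a protocadherin that links microvilli to each other, had signals of 6.92 to 7.29 in IKKβ triple KO livers and 8.06 to 8.62 in RIPK3 triple KO livers and fell by 1.18 on the log2 scale (SE 0.11, limma adjusted p = 6.50e-05). Its partner Cdhr2 was higher by 1.48 (adjusted p = 0.00472), with 5.71 to 6.76 in IKKβ triple KO livers and 4.55 to 5.10 in RIPK3 triple KO livers. TRAF2/Casp8 KO livers had 5.53 to 6.33 and WT livers 5.43 to 6.01, so RIPK3 triple KO livers stood apart for Cdhr2. Gelsolin (Gsn), an actin-severing relative of villin, was lower by 1.14, and the peptidase Mme by 0.99 (limma adjusted p = 0.0236 and 0.0293). For Mme, too, RIPK3 triple KO livers stood apart, with a mean of 5.31. IKKβ triple KO, TRAF2/Casp8 KO and WT livers had means of 4.33, 4.42 and 4.47. Vill, another villin relative, moved against Vil1 in the comparisons with WT: it fell by 0.38 in TRAF2/Casp8 KO livers and by 0.58 in RIPK3 triple KO livers (adjusted p = 0.0384 and 0.00273).

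Among 25 transcription factors of the intestinal epithelium, 0 rose and 1 fell between both triple knockouts, or 4.0% against 2.0% of all genes. Sox9, which marks intestinal crypts and bile ducts, had signals of 5.59 to 5.96 in IKKβ triple KO livers and 6.57 to 6.81 in RIPK3 triple KO livers (log2 difference -0.91, SE 0.15, limma adjusted p = 0.00612). It had 6.63 to 7.12 in TRAF2/Casp8 KO livers and 5.18 to 5.80 in WT livers, a pattern of a high and a low pair as for Guca2b. Elf3, an epithelial ETS factor, rose by 1.79 in TRAF2/Casp8 KO livers and by 1.39 in RIPK3 triple KO livers relative to WT (limma adjusted p = 0.00174 and 0.0125).

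The list of other intestinal epithelial genes (39 measured) had 1 up and 0 down between both triple knockouts, or 2.56%, near the 2.0% of all genes. That gene was the intermediate filament gene Krt20, with 7.06 to 8.27 in IKKβ triple KO livers and 4.63 to 5.38 in RIPK3 triple KO livers (log2 difference 2.70, SE 0.31, limma adjusted p = 0.000383). RIPK3 triple KO livers were also below TRAF2/Casp8 KO livers by 1.85 and below WT livers by 2.55, with limma adjusted p = 0.0199 and 0.000341. The tight junction genes Cldn7 and Cldn4 followed another order: they rose by 1.35 and 1.76 in TRAF2/Casp8 KO livers relative to WT and fell by 1.12 and 1.33 in IKKβ triple KO livers relative to TRAF2/Casp8 KO (limma adjusted p = 0.000186, 0.000656, 0.00211 and 0.0132).

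**Figure D5:**
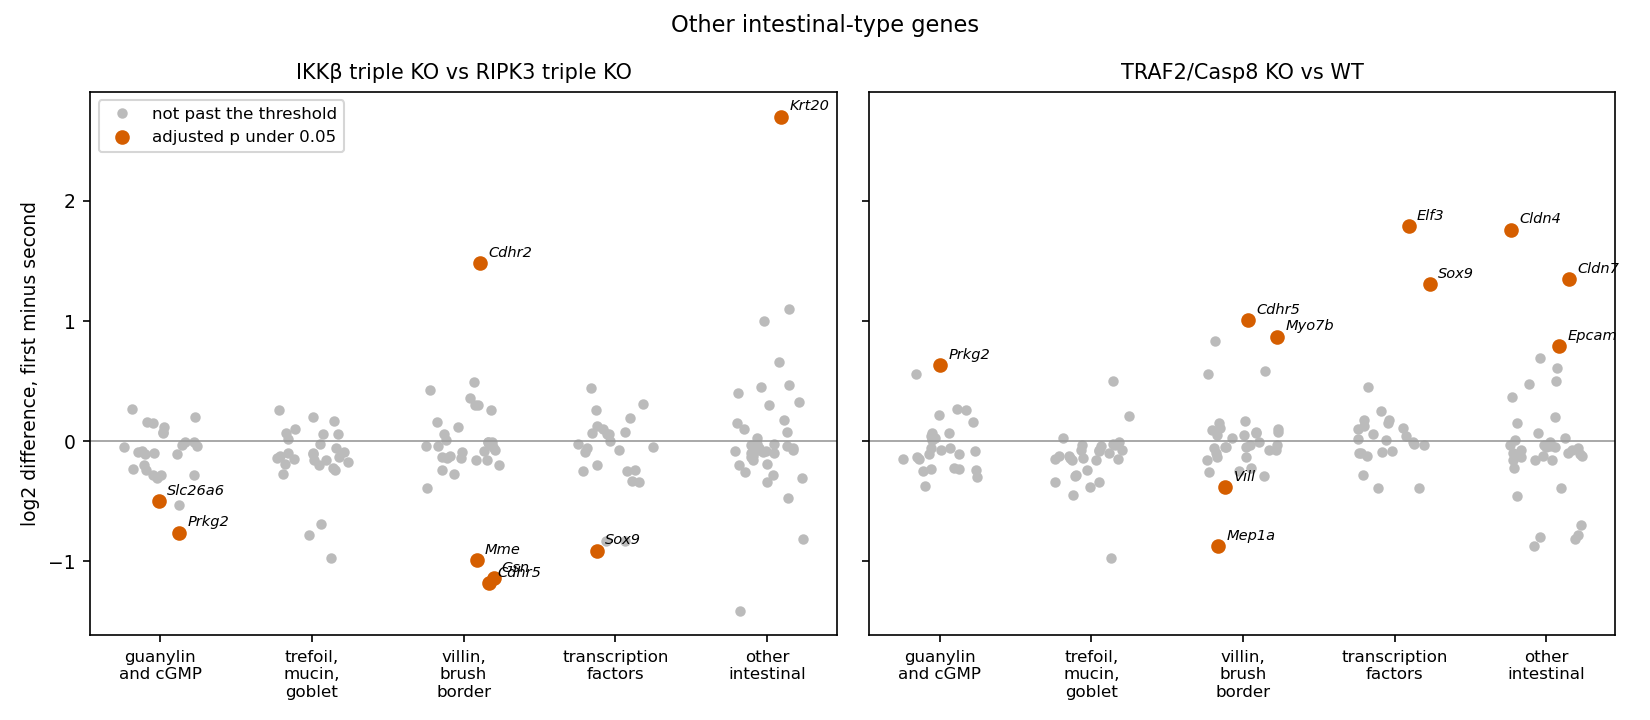
Log2 difference (y axis) of each list gene in IKKβ triple KO minus RIPK3 triple KO and in TRAF2/Casp8 KO minus WT, by list (x axis), with genes past the adjusted p of 0.05 named and in orange. In the left panel Krt20 at 2.70 and Cdhr2 at 1.48 lie above 0, and Cdhr5 at -1.18 and Sox9 at -0.91 lie below it.

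Markers that define the gut epithelium gave no call, which is near the share of all genes that passed, 0.0372% to 3.31% by comparison. Of 14 such markers measured, 0 passed the test in any comparison (limma, 0 to 2 at an unadjusted p under 0.05), and their mean per array was 4.10 to 4.17 in IKKβ triple KO livers, 4.03 to 4.05 in RIPK3 triple KO livers, 4.10 to 4.17 in TRAF2/Casp8 KO livers and 4.08 to 4.22 in WT livers. Cdx2, the master regulator of the intestinal lineage, ranged from 2.73 to 3.05 over all arrays, and the brush border enzyme Sis from 2.03 to 2.40. Other markers on the list had higher signal: Fabp2, a fatty acid binding protein, ranged from 8.75 to 10.12, Olfm4 from 5.58 to 8.39 and Lgr5 from 5.92 to 6.86. Of the 10 stomach markers 0 passed (0 at an unadjusted p under 0.05, limma), with array means of 3.52 to 3.99.

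Some biliary markers moved between the genotypes. Of the 10 measured, 2 passed between both triple knockouts (2.0% of all genes), 3 between IKKβ triple KO and TRAF2/Casp8 KO (1.02%), 3 between RIPK3 triple KO and WT (3.11%) and 4 between TRAF2/Casp8 KO and WT (3.31%). Between RIPK3 triple KO and TRAF2/Casp8 KO Cldn7 fell by 1.0 on the log2 scale (limma adjusted p = 0.0117, 0.329% of all genes). There, none of the 7 genes that were tested passed, and Guca2b and Tff3 are given without a test. Between IKKβ triple KO and WT 0 biliary markers passed (0.0372% of all genes). Their mean per array was 5.25 to 5.92 in IKKβ triple KO livers, 5.82 to 6.06 in RIPK3 triple KO livers, 5.78 to 6.13 in TRAF2/Casp8 KO livers and 5.34 to 5.81 in WT livers. Sox9, Epcam, Cldn7 and Bicc1 were the markers that passed in TRAF2/Casp8 KO against WT, all higher, while Prom1 and Muc1 had log2 differences of -0.61 and -0.97 that did not pass (limma adjusted p = 0.156 and 0.468). Sox9, Epcam and Cldn7 are also in the lists of intestinal-type genes, so the counts of both are not separate. Krt19 and Krt7, which define bile duct cells, had means of 5.63 and 5.54 in IKKβ triple KO livers, 6.14 and 5.78 in RIPK3 triple KO livers, 5.44 and 5.61 in TRAF2/Casp8 KO livers and 5.64 and 5.43 in WT livers. The part of bile duct cells in the Guca2b and Tff3 signals was not tested. In RNA of whole liver, fewer cells of a type and less RNA per cell cannot be told apart.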

How the data were processed

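RNA of 16 whole livers was measured on 1-colour arrays. Values were deposited by the authors as log2 signals from RMA, per the submitters' processing notes, without its version or the probe set definition. That the base is 2 follows from the range, 0.89 to 13.65. Array medians were 4.90 to 5.05. Precision is limited by the number of arrays, 16.

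Of 35556 probe sets, 21218 carry 1 symbol in GEO's platform annotation, 1881 several and 12457 none. The probe set with the highest mean stood for its gene (18820 genes), and each of the 7 genes has 1 probe set. A single limma model (version 3.58.1, R 4.3.3) of the 4 genotypes gave the tests and adjusted p, except where an alternative setting or omitted array is named. All tests were two-sided, with Benjamini-Hochberg adjustment across the full table fitted and 0.05 as threshold. Checked on simulated data for IKKβ triple KO against RIPK3 triple KO over 35556 probe sets, the model found 28% of log2 changes of 0.5, 78% of those of 1 and 98% of those of 2. Of its calls, 5.59% were false. The p-values weigh a difference between genotypes against the spread between animals of a genotype. That spread holds no difference between plate columns, and the litters are not known.

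The 7 genes, the gene lists, the marker lists and the promoter motifs were chosen with earlier results of these data known. Named list genes were up to 4 per list and comparison with the smallest adjusted p whose ranges did not overlap, or up to 2 with the smallest p where none passed, and a selection of these is given. The genes like Guca2b and Tff3 were the 6 with the highest Pearson correlation over 16 arrays for each, without predicted or clone-named genes and those of small RNAs, antigen receptor segments or chemosensory receptors. Promoters and gene positions are RefSeq's (GRCm38.p6), and 3 of the 7 genes were in the promoter table. In all, 9 alternative settings and the omission of each of the 16 arrays were tried.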

Additional observations from a re-analysis of the deposited data

Results flagged for a closer look

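In 5 of the 28 groups examined (7 genes in 4 genotypes), 1 liver stood far from the other livers of its genotype, and chance gives about 1 such group in 20. All genotypes but RIPK3 triple KO had such a liver for Gucy2c. IKKβ triple KO replicate 2 had a Gucy2c signal of 6.23, with the others at 5.55 to 5.64. TRAF2/Casp8 KO replicate 4 had a Gucy2c signal of 5.62, with the others at 4.72 to 4.77. WT replicate 3 had a Gucy2c signal of 5.0, with the others at 5.91 to 5.97. For Tff3, TRAF2/Casp8 KO replicate 1 had 8.86, with the others at 9.40 to 9.5. For Vil1, IKKβ triple KO replicate 1 had 3.41, with the others at 3.80 to 3.84.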

How the results depend on the processing

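Guca2b and Tff3 kept their calls between both triple knockouts in all 25 alternatives, with log2 differences of -3.40 to -2.89 for Guca2b and -2.0 to -1.58 for Tff3 and adjusted p up to 0.00748 and 0.0313. In IKKβ triple KO against TRAF2/Casp8 KO the calls of Guca2a and Vil1 were lost when only these genotypes were in the model. In RIPK3 triple KO against TRAF2/Casp8 KO, Guca2a was called without TRAF2/Casp8 KO replicate 2. List genes called summed to 37 over the 6 comparisons, to 59 with 1 probe set per gene and to 27 to 40 when each array was left out. In TRAF2/Casp8 KO against WT they numbered 10, and 16 with 1 probe set per gene, 18 with array weights and 6 without TRAF2/Casp8 KO replicate 1. In RIPK3 triple KO against TRAF2/Casp8 KO they numbered 2, and 0 when replicate 3 of RIPK3 triple KO or replicate 4 of TRAF2/Casp8 KO was left out, 1 when replicate 1 of either or replicate 4 of RIPK3 triple KO was, and up to 8 with 1 probe set per gene. In IKKβ triple KO against TRAF2/Casp8 KO they numbered 4, 2 when replicate 3 of IKKβ triple KO or replicates 1 or 4 of TRAF2/Casp8 KO were left out in turn, and 7 with array weights. Between both triple knockouts they numbered 8, and 5 without RIPK3 triple KO replicate 2. Small differences changed sign when single arrays were left out: Tff1 in RIPK3 triple KO against WT (-0.06 to 0.14), in IKKβ triple KO against WT (-0.01 to 0.19), in RIPK3 triple KO against TRAF2/Casp8 KO (-0.05 to 0.07) and between both triple knockouts (-0.03 to 0.11), and Gucy2c (-0.19 to 0.13) and Tff2 (-0.07 to 0.09) in IKKβ triple KO against WT. Tff1 in RIPK3 triple KO against TRAF2/Casp8 KO also turned to 0.01 with quantile normalisation again and to 0.05 with each array centred on its median. The cause of these changes was not tested. Among all genes, the calls between both triple knockouts numbered 377 (31.3% of them higher in IKKβ triple KO livers), 667 (3.54% of genes, 52.0% higher) without IKKβ triple KO replicate 1, 150 (0.797% of genes) without RIPK3 triple KO replicate 3 and 159 when only these genotypes were in the model. Leaving out 1 array gave 352 to 700 calls instead of 623 in TRAF2/Casp8 KO against WT, 317 to 714 instead of 585 in RIPK3 triple KO against WT, 103 to 256 instead of 192 in IKKβ triple KO against TRAF2/Casp8 KO, 25 to 79 instead of 62 in RIPK3 triple KO against TRAF2/Casp8 KO and 4 to 11 instead of 7 in IKKβ triple KO against WT, so the shares of all genes set beside the 7 move as much. Centring moved the share of higher calls among all genes called in RIPK3 triple KO against TRAF2/Casp8 KO to 68.8%, from 54.8%. A filter on dim probe sets (mean signal under 3.70) removed Tff2 of the 7 genes and Prkg2 of the list genes named as called. Another probe set per gene was not run: each of the 7 genes has 1, and for list and marker genes the choice was not tested.

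The labels do not say that replicate numbers pair the animals. Same-numbered livers' deviations correlated by -0.102 to 0.159, which cannot show whether such animals shared a litter or handling. With the replicate block, 2 of the 7 genes passed between both triple knockouts, the count found without it. Among all genes 132 rose and 225 fell there with the block. Over the 6 comparisons 42 list genes passed with it. In RIPK3 triple KO against WT, Vil1 was not called (adjusted p = 0.0874) and Guca2a was (adjusted p = 0.0413).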
